A study of Homo sapiens with 8 samples.

Results

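Islands of chromatin carrying both trimethylated lysine 4 of histone H3 (H3K4me3) and trimethylated lysine 27 of histone H3 (H3K27me3) were described in SUDHL6. They are the autosomal H3K4me3 islands of this line that overlap an H3K27me3 island of the same line by at least 1 bp. They were selected on the positions of these 2 lists. This gave 323 of the 13281 autosomal H3K4me3 islands (13736 on all chromosomes), 2.43% (exact 95% interval 2.18 to 2.71%), and these are called both-mark islands here. The remaining 12958 are called the other H3K4me3 islands. SUDHL6 and HT are established diffuse large B cell lymphoma lines, cultured in the same serum-containing medium and left untreated. SUDHL6 is known to carry a gain-of-function mutation of EZH2. ChIP-seq gave 1 library for each line and each of 3 antibodies, against H3K4me3, H3K27me3 and EZH2, and no library had a replicate. An island is a run of enriched windows of 150 bp that the authors called with SICER on hg19, so all widths and overlaps are multiples of 150 bp. Coordinates are hg19, counted from 1.

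H3K4me3 is laid down at promoters that are active or ready for activity, and H3K27me3 is laid down by Polycomb repressive complex 2, whose catalytic subunit is EZH2, at repressed genes. Promoters that carry both marks are called bivalent. They are best known from embryonic stem cells, where they belong to developmental regulators, and bivalent promoters have also been described in germinal centre B cells. In a bulk ChIP of a cell line, overlap of 2 islands does not show that both marks sit on the same allele, in the same cell or on the same nucleosome.

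With 1 library per line and antibody, no difference between the lines was tested. Each share is followed by its exact 95% interval (Clopper-Pearson), which covers counting error only, and neighbouring islands are not independent. The sources used here do not give read depth, and a missing island is not absence of a mark. The autosomal lists held 13281 H3K4me3, 13117 H3K27me3 and 1500 EZH2 islands in SUDHL6, and 10593, 16851 and 2508 in HT.

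The overlaps were mostly short and mostly lay at an end of the H3K4me3 island. The values in this paragraph and the next describe what the rule selected and were not tested. The median both-mark island shared 600 bp with H3K27me3 (quartiles 300 and 1200 bp), which was a median of 33.3% of its length (quartiles 16.7 and 62.5%). A single window of 150 bp was shared by 54 islands (16.7%), and 167 (51.7%) shared 600 bp or less. At least 50% of the island was shared by 108 (33.4%), and 20 islands (6.19%) shared 3 kb or more. All shared bases together came to 363 kb, 1.13% of the H3K4me3 length and 0.708% of the H3K27me3 length of SUDHL6. The 5 islands that shared the most held 19.8% of it.

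H3K27me3 lay at a single end in 262 islands (81.1%, 76.4 to 85.2%), which shared a median of 28.6% of their length. It ran on past that end in 259 of them and stopped level with it in the rest. It lay at the lower-coordinate end in 128 of these 262 (48.9%) and at the other end in the rest. In 44 islands (13.6%, 10.1 to 17.9%) the whole H3K4me3 island lay within an H3K27me3 island. These 44 were narrower, with a median of 1200 bp against 2100 bp for the single-end islands, and their H3K27me3 islands had a median width of 4875 bp. The reverse nesting, a narrow H3K27me3 island with H3K4me3 on both sides, was found in 11 islands (3.41%). Their H3K4me3 islands had a median width of 3450 bp and their H3K27me3 islands 1200 bp. H3K27me3 lay at both ends in 4 islands, and at an end and within the island in 2. Of the 324 partner H3K27me3 islands, 319 met a single both-mark island and 5 met 2.

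**Figure D1:**
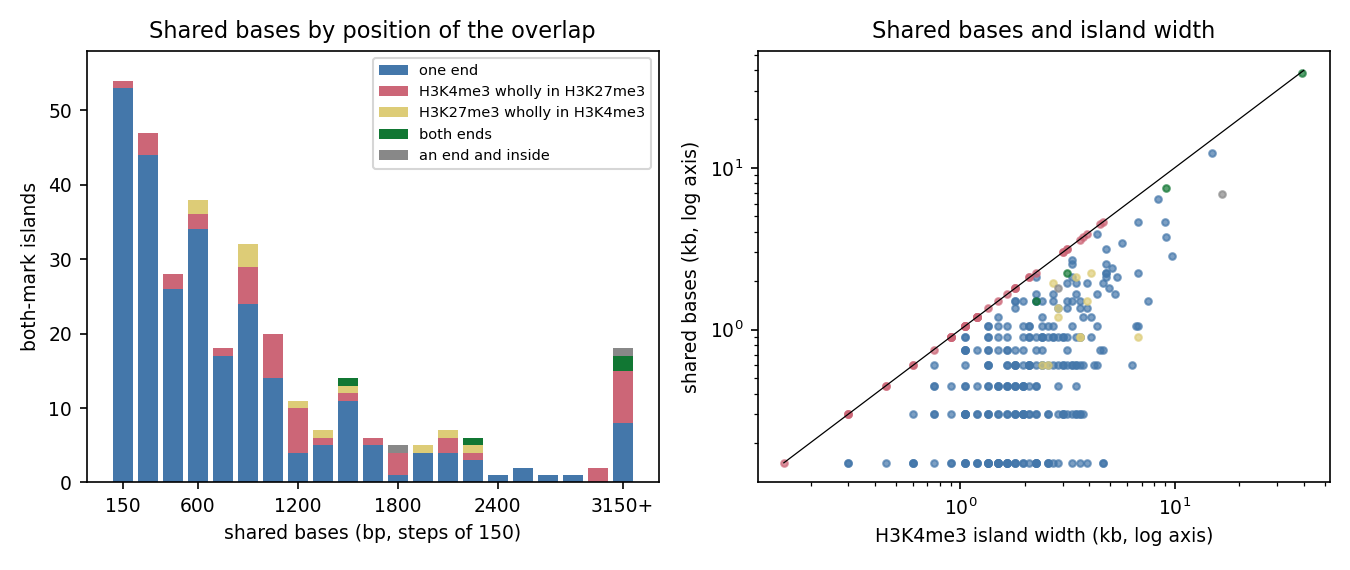
The left panel counts the 323 both-mark islands by shared bases (bp, steps of 150, the last bar holding 3150 bp or more) and by position of the overlap. The right panel plots shared bases against H3K4me3 island width (kb, both axes logarithmic), and islands on the line lie wholly in H3K27me3. The bar at 150 bp is the tallest with 54 islands, and 1 island with 38.7 kb shared stands apart at the upper right.

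In median width and score the both-mark islands were close to the rest of the H3K4me3 list. The median width was 2100 bp in both sets, with quartiles of 1350 and 3150 bp for both-mark islands and 1500 and 2850 bp for the others. The score is the authors' own value for each island. The sources used here do not say what it counts, and it was used only as a rank within its list. The median both-mark island stood at the 51.9 percentile of the H3K4me3 list by score, and the median other island at 49.6. By score per kb, the percentiles were 47.1 and 50.1. The partner H3K27me3 islands stood higher in their list. Their median percentile by score per kb was 64.5, against 49.6 for the 12793 other H3K27me3 islands, and their median widths were 3450 bp and 3000 bp. H3K4me3 covered a median of 20% of a partner H3K27me3 island (quartiles 8.50 and 43.2%).

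SUDHL6 EZH2, which the rule did not use, lay on 68 of the 323 both-mark islands, or 21.1% (16.7 to 25.9%). Among the other H3K4me3 islands the share was 1.48% (1.28 to 1.70%), and over the whole H3K4me3 list it was 1.96%. The ratio of the 2 shares was 14.2, and the intervals lay far apart. The both-mark share was higher in every width class. Below 1 kb it was 32.3% (16.7 to 51.4%, n = 31) against 1.41% (0.793 to 2.32%, n = 1062), and from 2 to 4 kb it was 17.6% (11.4 to 25.4%, n = 125) against 1.39% (1.09 to 1.75%, n = 5240).

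EZH2 is known to lie over H3K27me3, so the H3K27me3 islands give a second scale for these shares. EZH2 lay on 22.5% (18.1 to 27.5%) of the 324 partner H3K27me3 islands and on 9.11% (8.62 to 9.63%) of the other H3K27me3 islands, against 9.45% of the whole H3K27me3 list. Wide H3K27me3 islands held EZH2 more often in both sets. From 4 to 8 kb the shares were 29.7% (20.5 to 40.2%) for partners and 11.6% (10.6 to 12.8%) for the others. At 8 kb or wider they were 48.9% (34.1 to 63.9%) and 25.2% (22.5 to 27.9%). The partner share was the higher in each of the 4 width classes compared. From 2 to 4 kb the intervals overlapped, at 12.3% (6.69 to 20.1%) for partners and 6.99% (6.28 to 7.76%) for the others.

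Where EZH2 was present, it usually covered the island. It covered the whole H3K4me3 island at 40 of the 68 sites and reached the shared bases at 67. The 64 EZH2 islands involved had a median width of 6225 bp, against 4500 bp for the whole EZH2 list and 3600 bp for the 186 EZH2 islands that met other H3K4me3 islands. Both-mark islands with EZH2 shared more bases with H3K27me3 than those without, with medians of 825 bp and 600 bp. Their H3K27me3 islands were wider, with medians of 4800 bp and 3150 bp, while the H3K4me3 widths had the same median of 2100 bp. By shared bases the EZH2 share was 18.5% at 150 bp, 21.3% at 300 to 450 bp, 15.7% at 600 to 1050 bp and 29.1% (19.8 to 39.9%) at 1200 bp or more, with overlapping intervals throughout.

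**Figure D2:**
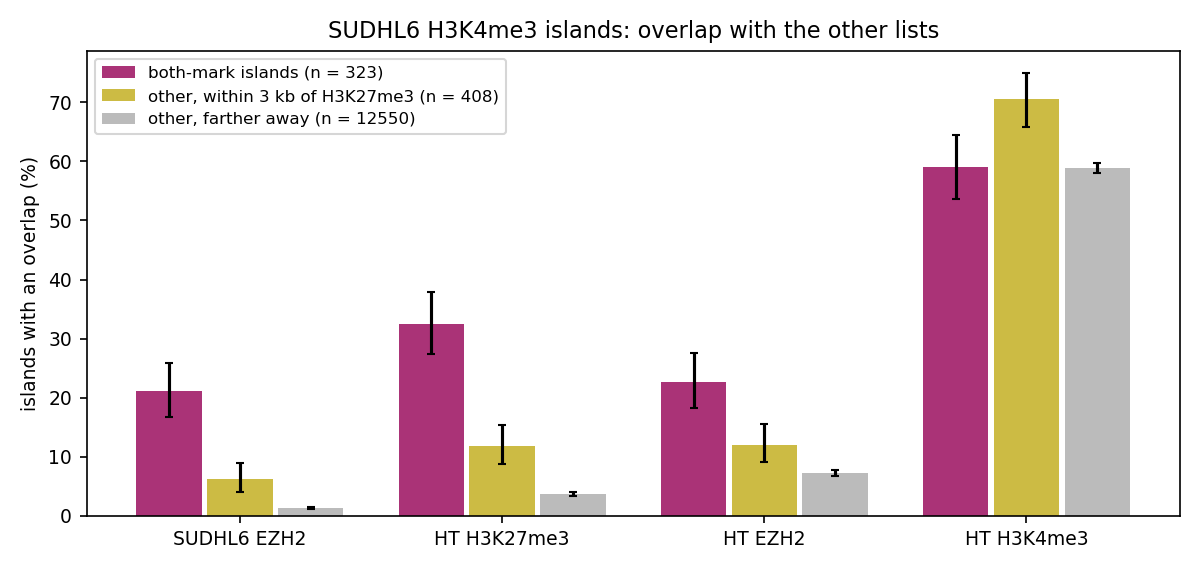
Bars give the percentage of SUDHL6 H3K4me3 islands that overlap each list named on the horizontal axis, for both-mark islands, other islands within 3 kb of SUDHL6 H3K27me3 and other islands farther away, and error bars are exact 95% intervals. SUDHL6 EZH2, HT H3K27me3 and HT EZH2 are highest at both-mark islands (21.1, 32.5 and 22.6%), whereas HT H3K4me3 is at 59.1%, below the 70.6% of the other islands within 3 kb and close to the 58.9% of those farther away.

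The rule did not use the HT lists either. HT H3K27me3 was more frequent at both-mark islands than at the other H3K4me3 islands, while the share with HT H3K4me3 was close to that of the pooled others. HT H3K4me3 lay on 191 of the 323 both-mark islands, 59.1% (53.6 to 64.5%), against 59.2% (58.4 to 60.1%) of the other H3K4me3 islands and 59.2% of the whole list. It was lower than at the 408 other islands within 3 kb of SUDHL6 H3K27me3, of which 70.6% (65.9 to 75%) had HT H3K4me3. HT H3K27me3 lay on 105 both-mark islands, 32.5% (27.4 to 37.9%), against 3.87% (3.54 to 4.21%) of the other islands and 4.56% of the whole list, a ratio of 8.41 between both-mark and other islands. HT EZH2 lay on 73 both-mark islands, 22.6% (18.2 to 27.6%), against 7.37% (6.93 to 7.83%) of the others and 7.74% of the whole list. At the 408 other islands within 3 kb these shares were higher, 11.8% (8.80 to 15.3%) for HT H3K27me3 and 12.0% (9.02 to 15.6%) for HT EZH2.

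The H3K27me3 lists give the other scale here too. HT H3K27me3 lay on 42.3% (36.8 to 47.9%) of the partner H3K27me3 islands and on 27.5% (26.8 to 28.3%) of the other SUDHL6 H3K27me3 islands, against 27.9% of the whole list. At partner widths below 2 kb the shares were 31.2% (21.3 to 42.6%) and 19.2% (18.0 to 20.5%), and from 4 to 8 kb they were 44.0% (33.6 to 54.8%) and 33.4% (31.8 to 35.0%). HT H3K4me3 lay on 43.8% (38.3 to 49.4%) of the partners and 1.51% (1.30 to 1.74%) of the other H3K27me3 islands, against 2.55% of the whole list. All partners overlap SUDHL6 H3K4me3 by definition and the others do not. HT H3K4me3 lay on 59.2% of all SUDHL6 H3K4me3 islands, so a higher share at partners follows from how they were chosen. HT EZH2 lay on 25.6% (21 to 30.7%) and 3.89% (3.56 to 4.24%), against 4.43% of the whole list.

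Each both-mark island was then placed in 1 of 4 states by the HT marks that overlapped it. HT H3K4me3 alone was found at 142 islands, 44.0% (38.5 to 49.6%), against 57.8% of the other H3K4me3 islands and 57.4% of the whole list. HT H3K27me3 alone was found at 56, 17.3% (13.4 to 21.9%), against 2.41% of the other islands and 2.77% of the list. Both HT marks were found at 49, 15.2% (11.4 to 19.6%), against 1.46% of the other islands and 1.79% of the list. Neither was found at 76, 23.5% (19.0 to 28.5%), against 38.4% of the other islands and 38% of the list. Read over the shared bases alone rather than over the whole H3K4me3 island, HT H3K4me3 alone was at 32.5%, both marks at 10.5% and neither at 35.6%, while HT H3K27me3 alone stayed within the interval above. When every overlap, of the SUDHL6 and the HT lists, had to reach 50% of the H3K4me3 island, 108 both-mark islands were left and neither HT mark became the most frequent state. It was at 42.6% (33.1 to 52.5%), against 45.8% (45 to 46.7%) of the other islands, so the intervals no longer lay apart. HT H3K4me3 alone was then at 22.2% (14.8 to 31.2%) against 51.4%, HT H3K27me3 alone at 28.7% (20.4 to 38.2%) against 2.17%, and both at 6.48% (2.65 to 12.9%) against 0.622%.

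The 4 states differed in how the marks lay in SUDHL6. Islands with HT H3K4me3 alone had the highest H3K4me3 score per kb, at a median percentile of 60.9 of the SUDHL6 list, and shared a median of 23.3% of their length with H3K27me3. Islands with HT H3K27me3 alone stood at a median percentile of 36.9 and shared 57.8%, with a median of 900 bp shared. Islands with neither HT mark also stood at 36.9 and shared 43.7%, and they were the narrowest, with a median of 1500 bp. Islands with both HT marks stood at a percentile of 49.1 with 28.6% shared, and they were the widest, with a median of 2400 bp. These are medians over 142, 56, 76 and 49 islands with wide, overlapping quartiles. At an overlap of 1 bp, wider islands can meet more HT islands by placement alone. Among the other H3K4me3 islands, neither HT mark was at 55.1% below 1 kb, 23.9% from 4 to 8 kb and 33.3% at 8 kb or wider. Both marks were at 0.753%, 2.68% and 9.09%. Widths and scores of the other islands were not split by HT state, so these differences may not be particular to both-mark islands.

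**Figure D3:**
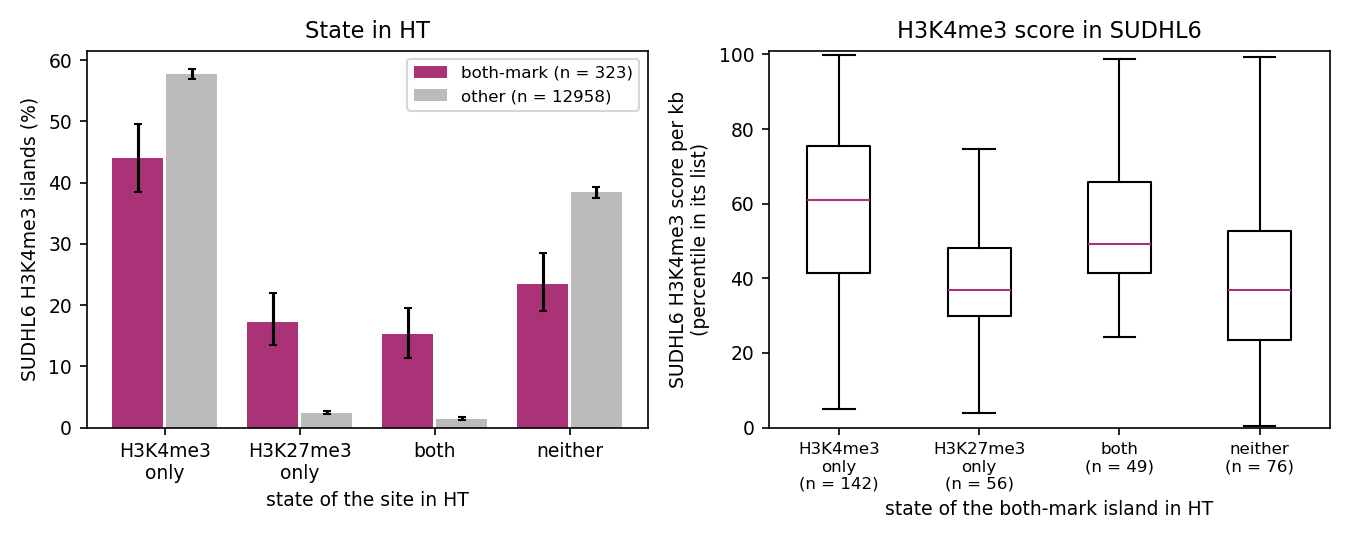
The left panel gives the percentage of both-mark islands and of other SUDHL6 H3K4me3 islands in each HT state, with exact 95% intervals. The right panel gives, for both-mark islands in each state, the percentile of the SUDHL6 H3K4me3 score per kb in its list (line at the median, box at the quartiles, whiskers at the extremes), with medians of 60.9, 36.9, 49.1 and 36.9.

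HT EZH2 was more frequent at both-mark islands that had H3K27me3 in HT. It lay on 55.4% (41.5 to 68.7%) of those with HT H3K27me3 alone and on 49.0% (34.4 to 63.7%) of those with both HT marks. The share was 9.15% (4.97 to 15.1%) for those with HT H3K4me3 alone and 6.58% (2.17 to 14.7%) for those with neither. For SUDHL6 EZH2 the shares of the same states were 32.1% (20.3 to 46.0%), 30.6% (18.3 to 45.4%), 15.5% (9.97 to 22.5%) and 17.1% (9.43 to 27.5%), with overlapping intervals. Of the 68 both-mark islands with SUDHL6 EZH2, 30 had HT EZH2 (44.1%, 32.1 to 56.7%), against 43 of the 255 without it (16.9%, 12.5 to 22%). Islands of all 6 lists met at 8 both-mark islands (2.48%).

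HT had 337 both-mark islands of its own by the same rule, 3.18% (2.86 to 3.53%) of 10593. Of the SUDHL6 both-mark islands, 46 (14.2%, 10.6 to 18.5%) overlapped one of these, against 1.86% of all SUDHL6 H3K4me3 islands, and 48 of the HT set (14.2%, 10.7 to 18.4%) overlapped a SUDHL6 both-mark island. Of the 49 SUDHL6 islands with both HT marks, 40 met such an HT island, and at the other 9 the HT marks lay on separate parts of the site. The SUDHL6 set had more single-end overlaps, 81.1% (76.4 to 85.2%) against 66.2% (60.8 to 71.2%), and fewer H3K4me3 islands wholly inside H3K27me3, 13.6% (10.1 to 17.9%) against 24.3% (19.8 to 29.3%). EZH2 of the same line lay on 21.1% (16.7 to 25.9%) of the SUDHL6 set and 46.9% (41.5 to 52.4%) of the HT set. The HT EZH2 list is the longer, and EZH2 lay on 1.48% and 7.01% of the other H3K4me3 islands of SUDHL6 and HT. By score per kb the HT set stood at a median percentile of 31.5 in its own H3K4me3 list, against 47.1 for the SUDHL6 set in the SUDHL6 list.

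The 262 single-end islands were aligned on the H3K4me3 end that lies in H3K27me3, and that end was turned to the right. Pooled over these sites, HT H3K4me3 lay more to the left and HT H3K27me3 more to the right. Only 39 of the 262 had both HT marks, so the pooled order mostly combines different sites. HT H3K4me3 was most frequent 1050 bp inside the SUDHL6 H3K4me3 island, where 49.6% of sites were covered, was at 23.7% just past its end, and was at 0.763% at 3 kb on the H3K27me3 side. HT H3K27me3 peaked just past the end at 29.0%, and was at 19.8% at 3 kb on the H3K27me3 side and 11.8% at 3 kb on the H3K4me3 side. EZH2 peaked 450 bp inside the H3K4me3 end in both lines, at 18.7% in SUDHL6 and 20.2% in HT.

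The same 262 sites were divided into 444 kb with H3K4me3 alone, 219 kb shared by both marks and 961 kb with H3K27me3 alone in SUDHL6. HT H3K4me3 covered 56.0%, 30.9% and 4.48% of these lengths, and HT H3K27me3 covered 12.7%, 30.0% and 28.9%. By pooled length, EZH2 covered a larger share of the shared part than of the other 2 parts. The values were 15.7%, 28.0% and 21.5% in SUDHL6 and 17.1%, 27% and 11.8% in HT. Long overlaps weigh most in these shares. On chromosome 19 from 48422101 to 48437100, 12.3 kb was shared and SUDHL6 EZH2 covered 85.0% of the island. It is among the long sites described below that could not be checked. At the sites whose HT state was H3K27me3 alone, HT H3K27me3 covered 70.0% of the part that carried H3K4me3 alone in SUDHL6. It covered 96.6% of the shared part and 69.8% of the part with H3K27me3 alone. At the sites whose HT state was H3K4me3 alone, HT H3K4me3 covered 78.7% of the part with H3K4me3 alone, 50.8% of the shared part and 8.18% of the part with H3K27me3 alone. The HT state was set by overlap with the same H3K4me3 island, which the first 2 parts make up. Coverage of those parts is therefore raised by the choice of state, and no comparison set was measured.

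**Figure D4:**
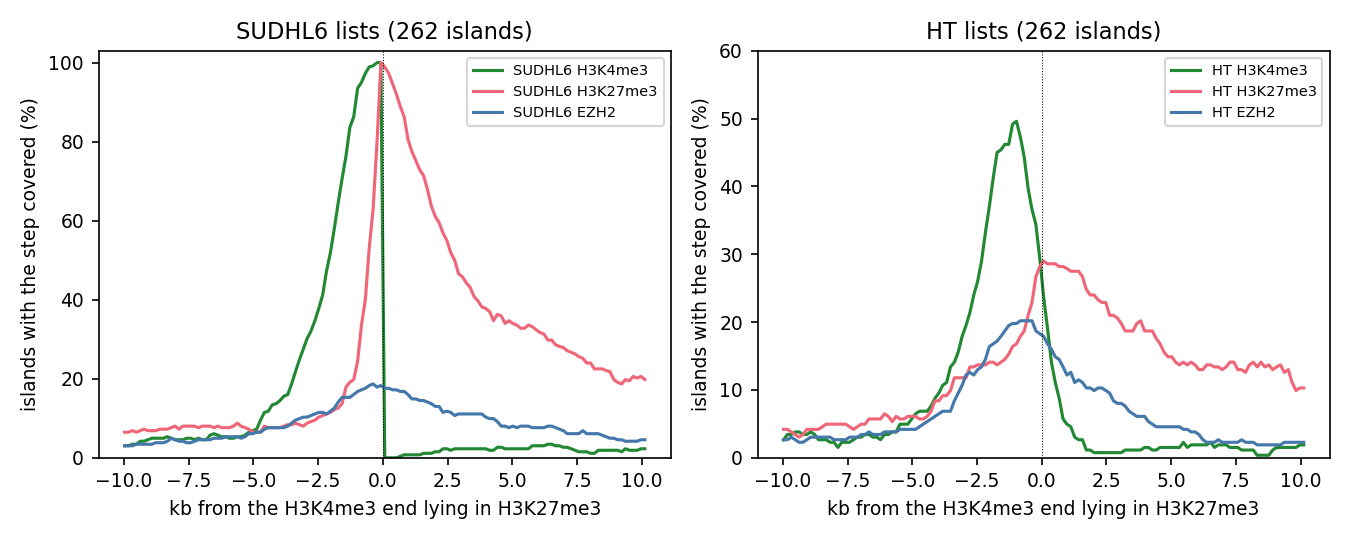
Lines give the percentage of the 262 single-end both-mark islands covered by each list in steps of 150 bp, against distance in kb from the H3K4me3 end that lies in H3K27me3 (negative values run into the H3K4me3 island). The SUDHL6 H3K4me3 and H3K27me3 lines are fixed by the alignment, while in HT, where the vertical axis ends at 60%, H3K4me3 peaks at 49.6% left of the end and H3K27me3 at 29.0% just right of it.

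Across the 1 bp limit, the HT H3K27me3 share was level within wide intervals, while the SUDHL6 EZH2 share was lower just outside it, with overlapping intervals. The following are values on either side of it, with no test. HT H3K27me3 lay on 20.4% (10.6 to 33.5%) of the 54 islands that shared 150 bp. It lay on 20% (10.4 to 33.0%) of the 55 H3K4me3 islands that touched H3K27me3 without overlap. With 150 bp between, it was 20% (9.05 to 35.6%) of 40, so a sizeable change in either direction could be missed. At gaps of 300 to 3000 bp it was 9.27% (n = 313) and farther away 3.61% (n = 12550). SUDHL6 EZH2 was at 18.5% (9.25 to 31.4%), 5.45% (1.14 to 15.1%), 12.5% (4.19 to 26.8%), 5.43% and 1.33% over the same classes. HT H3K4me3 was at 68.5%, 61.8%, 67.5%, 72.5% and 58.9%. Just inside the limit, the H3K4me3 island on chromosome 1 from 9882451 to 9884550 met H3K27me3 in its last window, and HT H3K4me3 covered 100% of it. Just outside, the island on chromosome 1 from 27930001 to 27930600 only touched H3K27me3, and HT H3K4me3 covered 100% of it too.

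Of the 5 islands with the most shared bases, 4 had SUDHL6 EZH2 and 3 had HT EZH2. On chromosome 19 from 50604301 to 50643600, an H3K4me3 island of 39.3 kb shared 38.7 kb with 2 H3K27me3 islands, and EZH2 covered 100% of it in SUDHL6 and in HT, with neither HT histone mark. A second group lay between 48412501 and 48454500 of chromosome 19, where 3 both-mark islands of 9, 15 and 16.65 kb shared 4.65, 12.3 and 6.9 kb. SUDHL6 EZH2 covered 100%, 85.0% and 0% of them, and HT EZH2 covered 100%, 95% and 100%, while the only HT histone mark there was H3K4me3. On chromosome 17 from 36283351 to 36292500, an island of 9.15 kb had H3K27me3 at both ends and shared 7.5 kb, with 75.4% under SUDHL6 EZH2 and no island of HT. By score per kb these islands stood at percentiles from 22.1 to 45.8 of the H3K4me3 list. Islands of several antibodies and of both lines met at most of these sites, and neither input nor mappability was analysed here, so they could not be checked as sites of the marks. Without the 5 islands that shared the most, none of the 15 results recomputed was called moved. Leaving out 5 of 323 islands could hardly move a share or a median beyond its interval, so this does not check these sites.

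Several islands that overlapped both marks in HT were long, and those on chromosomes 2, 9 and 15 share the limit just given. Islands from 5 or 6 of the 6 lists met at each of these sites, near chromosome ends or not. Near the start of chromosome 9, from 26101 to 34500 and 0.0261 Mb from the end, 6.45 kb of an 8.4 kb island was shared, and HT H3K4me3 and H3K27me3 covered 28.6% and 50% of it. Near the end of chromosome 15, from 102498301 to 102504000, 3.45 kb of 5.7 kb was shared, with HT H3K4me3 at 84.2% and HT H3K27me3 at 34.2%. On chromosome 2 from 114336901 to 114343650, 4.65 kb of 6.75 kb was shared, with 51.1% and 53.3%. SUDHL6 EZH2 covered 80.4%, 100% and 100% of these 3 islands. Also on chromosome 2, from 90443851 to 90453600, 2.85 kb of 9.75 kb was shared. There the HT marks covered 27.7% and 76.9%, and EZH2 covered 90.8% in SUDHL6 and 93.8% in HT. On chromosome 6 from 53657701 to 53662050, 3.9 kb of 4.35 kb was shared without EZH2 in either line, and the HT marks covered 55.2% and 51.7%.

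The leading islands with HT H3K27me3 alone were mostly on chromosome 6, and each was covered by SUDHL6 H3K27me3 over more than 50% of its length. They were picked for the most bases shared with SUDHL6 H3K27me3, so such cover is favoured by the choice. From 3225751 to 3230250 a 4.5 kb island lay wholly in H3K27me3, with EZH2 over 100% of it in SUDHL6 and 96.7% in HT, and HT H3K27me3 covered 90.0%. From 390151 to 394050 a 3.9 kb island lay wholly in an H3K27me3 island of 17.85 kb, with HT H3K27me3 over 42.3% and no EZH2 in either line. From 36646351 to 36651150 an island of 4.8 kb shared 2.55 kb with an H3K27me3 island at the 99.6 percentile of its list by score per kb. SUDHL6 EZH2 covered 100% of that island, HT H3K27me3 100% and HT EZH2 65.6%. On chromosome 7 from 26189851 to 26193150, 2.7 kb of 3.3 kb was shared, with no SUDHL6 EZH2, HT H3K27me3 over 100% and HT EZH2 over 63.6%.

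The leading islands with HT H3K4me3 alone outside chromosome 19 were also on chromosome 6. From 32818951 to 32823600 a 4.65 kb island lay wholly in an H3K27me3 island of 9.15 kb, and HT H3K4me3 covered 93.5% of it. From 3063451 to 3067200 a 3.75 kb island lay wholly in H3K27me3, and HT H3K4me3 covered 44.0%. Neither had EZH2 in either line. Among islands with neither HT mark, 2 on chromosome 2 were weak for both SUDHL6 marks. The island from 38838151 to 38841150 stood at percentiles of 7.19 for H3K4me3 and 7.57 for H3K27me3 by score per kb, and the one from 170335501 to 170337750, where both islands had the same ends, at 0.286 and 0.355.

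Chromosomes 6 and 7 held 45 and 41 both-mark islands, together 26.6% (21.9 to 31.8%) of the set. They held 13.2% (12.6 to 13.7%) of the other H3K4me3 islands and 11% (10.5 to 11.6%) of all H3K27me3 islands of SUDHL6. The both-mark share of H3K4me3 islands was 5.20% (3.82 to 6.90%) on chromosome 6 and 4.43% (3.20 to 5.97%) on chromosome 7, against 2.43% over all autosomes. These were the highest shares of the 22 autosomes and were singled out after the data were seen, with intervals not adjusted for that. Chromosome 22 followed with 4.22% (2.04 to 7.62%, 10 islands). It was lowest on chromosomes 13 (0.707%, 0.0857 to 2.53%) and 4 (0.837%, 0.228 to 2.13%). Copy number was not measured, so it and a difference in chromatin cannot be told apart here. For readouts that the rule did not use, the intervals on and off these chromosomes overlapped. HT H3K27me3 lay on 30.2% (20.8 to 41.1%) of the both-mark islands of chromosomes 6 and 7 and 33.3% (27.4 to 39.7%) of those elsewhere. For SUDHL6 EZH2 the shares were 18.6% (11 to 28.4%) and 21.9% (16.8 to 27.8%).

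**Figure D5:**
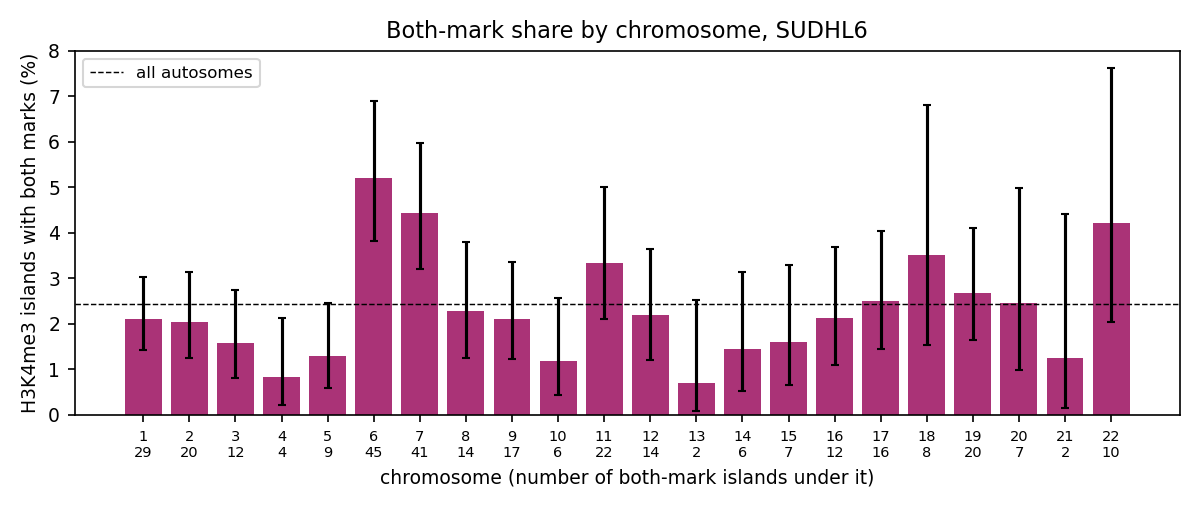
Bars give the percentage of SUDHL6 H3K4me3 islands that carry both marks on each autosome, with exact 95% intervals and the number of both-mark islands under each chromosome number. The dashed line is the 2.43% of all autosomes, and the intervals of chromosomes 6 and 7 lie above it.

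With gaps of up to 1 Mb joined, the both-mark islands formed 220 runs, and 158 islands (48.9%) lay in a run with at least 1 other. No comparison set was measured for this, and H3K4me3 islands are themselves dense. The largest run held 11 islands between 99678001 and 102316950 of chromosome 7, and the next held 6 between 1609201 and 3261300 of chromosome 6. Within 10 Mb of a chromosome end lay 28.2% (23.3 to 33.4%) of the both-mark islands, against 16.3% (15.6 to 16.9%) of the other H3K4me3 islands and 39.0% (38.2 to 39.8%) of all SUDHL6 H3K27me3 islands. Both-mark islands near the ends had HT H3K27me3 in 28.6% (19.6 to 39.0%) and those inside in 34.1% (28.0 to 40.5%), and SUDHL6 EZH2 in 24.2% (15.8 to 34.3%) and 19.8% (14.9 to 25.5%).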

How the data were processed

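H3K4me3, H3K27me3 and EZH2 ChIP-seq of SUDHL6 and HT had 1 library per line and antibody, and the 2 input samples were not used here. Per the submitters' processing notes, SICER and hg19 were used. Windows of 150 bp, a 450 bp gap and an FDR of 1E-7 stand in the names of the deposited files. The H3K27me3 names carry a normalization tag that the rest do not, and its meaning is not stated in the labels. The score deposited for each island was used only within its list. Islands were called per library. The sources used here do not give the aligner, the control or the depth, and chromosome X was left out by the rule. The gene tables at hand are on GRCh38, so islands were not assigned to genes and no sequence was read.

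Overlap meant at least 1 bp. Percentiles are mid-ranks within an autosomal list. The overlap and position steps were checked on 13281 simulated islands, and 100% were classed rightly. Simulated single-end overlaps all lay at the higher-coordinate end, and none lay both at an end and within the island, so those cases were not checked. The both-mark islands and the classes used were chosen with earlier results of these data known. Regions were named by rule: the 5 islands with the most shared bases in all and in each HT state, the 5 widest, the 5 with the most EZH2, the 5 wholly inside with the highest score per kb, and up to 3 on either side of the limit, of which the text gives the leading ones. Alternatives were a 50% overlap, the top 50% by score, a width of 1 kb or more, joining within 5 kb, extension by 500 bp, shared bases only and all chromosomes. The HT states of the other islands at a 50% overlap, runs, width classes of H3K27me3 islands and single-end alignment were added after the data were seen. The work ran in Python 3.11.15 with scipy 1.17.1, numpy 2.4.6 and, for plots, matplotlib 3.10.9.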

Additional observations from a re-analysis of the deposited data

How the results depend on the processing

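Shares were called moved when they left the interval of the main value, medians when they left its order-statistic interval, and the count when it changed by over 1.5 times. Of 141 values under other settings, 105 did not move and 36 did, 13 of them with every overlap, HT lists included, held to at least 50% of the H3K4me3 island. Under that setting 108 both-mark islands (0.813% of the H3K4me3 list) remained, with medians of 1200 bp shared and 1650 bp wide. Of these, 56.5% overlapped at an end and 40.7% lay wholly inside, 28.7% had SUDHL6 EZH2 and 27.8% HT EZH2, and the HT states were 22.2% H3K4me3 alone, 28.7% H3K27me3 alone, 6.48% both and 42.6% neither, with HT H3K27me3 on 2.79% of the other islands. With each list held to its top 50% by score, 109 islands (1.64%) remained, with medians of 900 bp shared and 3300 bp wide (2700 bp for the others). Of these, 91.7% overlapped at an end, 7.34% lay wholly inside, 7.34% had both HT marks, 32.1% neither and 17.4% HT EZH2, while the other islands had SUDHL6 EZH2 in 0.628% and HT H3K27me3 in 3.09%. This setting leaves fewer islands to meet. Overlap at an end was 87.1% for islands of at least 1 kb and 69.8% with islands within 5 kb joined, which also put 25.1% wholly inside. With the other lists extended by 500 bp, both-mark islands were 3.64% of the list, 18.8% lay wholly inside and the median shared was 800 bp. Over the shared bases alone, the HT states were 32.5% H3K4me3 alone, 10.5% both and 35.6% neither. In settings chosen after the data were seen, the both-mark share was 2.06% without chromosomes 6 and 7 and 2.09% over 10 Mb from chromosome ends. Using all chromosomes moved nothing. The cause of these moves was otherwise not tested. No paired analysis was possible because each group had 1 library.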

Other observations

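On chromosome X, 0 of the 429 SUDHL6 H3K4me3 islands overlapped 1 of the 42 H3K27me3 islands. An approximate upper limit, set at 3 of 429, is 0.699%, which is not an exact interval like those above. With 42 H3K27me3 islands, few overlaps could be met, so the 0 says little.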
